A study of Mus musculus with 7 samples.

Results

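The miR-129 products are the mature miRNAs cut from the mouse hairpins Mir129-1 and Mir129-2. They were chosen by name, as every product of the miR-129 stem, and comprised 3 of the 756 mature sequences measured (4 of 806 loci): mmu-miR-129-5p, mmu-miR-129-2-3p and mmu-miR-129-1-3p, written below without the species prefix. The stem was singled out with the level of miR-129-2-3p in trained and non-trained controls already known, so values of that contrast are given as a description, without a p-value.

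A miRNA hairpin is cut to a short duplex whose arms, 5p and 3p, can each be loaded into an Argonaute protein, and the loaded arm pairs with target mRNAs mainly through its seed. miR-129 is abundant in brain. In neurons, miR-129-5p is known to repress the mRNA of the potassium channel Kv1.1 and to act in the homeostatic down-scaling of excitatory synapses.

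The sequences show why the arms carry different information about the hairpins, with the seed (bases 2 to 8) in capitals.
miR-129-5p: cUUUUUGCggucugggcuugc
miR-129-2-3p: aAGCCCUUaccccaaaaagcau
miR-129-1-3p: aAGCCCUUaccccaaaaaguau
miR-129-5p is the same 21 bases in both hairpins, so its reads cannot be assigned to one of them, and each 5p locus carried the full 5p value. The 3p products are each 22 bases long and share 21 of them. They differ by C20U, counted from the 5′ end of miR-129-2-3p, with its base first. That base lies outside the seed, and it lets 3p reads that cover it be assigned to a hairpin. Inserts from 19 nt were kept, so a read that ends before base 20 would fit both hairpins. The number of such reads, and of reads misassigned by a sequencing error, was not measured. Among the 756 measured sequences no other held the 5p seed, and the 3p seed was held only by the 3p pair.

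In mm9, Mir129-1 lies on the plus strand at chr6:28972619-28972691, with miR-129-5p at chr6:28972624-28972644 and miR-129-1-3p at chr6:28972667-28972688. Mir129-2 lies on the minus strand at chr2:94081521-94081610, with miR-129-5p at chr2:94081576-94081596 and miR-129-2-3p at chr2:94081533-94081554. Neither hairpin overlapped another annotated gene. The nearest protein-coding genes were Lep, which encodes leptin, 37529 bp from Mir129-1, and Ttc17, 59314 bp from Mir129-2. The deposited loci carry no strand, so antisense transcripts at these positions could not be told apart.

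Small RNAs were sequenced from hippocampus of adult C57BL/6 mice aged 3 to 5 months. NIPP1* mice express, in forebrain neurons and on doxycycline, a fragment of the nuclear PP1 inhibitor NIPP1, driven through rtTA2 under the CaMKIIα promoter. Control littermates are labelled wildtype. Trained mice learned the object recognition task NOR, and non-trained mice entered the chamber without objects. Each of the 7 libraries came from pooled hippocampi taken 30 min after training: 1 non-trained control (library 1), 1 non-trained NIPP1* (library 2), 3 trained control (libraries 3 to 5) and 2 trained NIPP1* (libraries 6 and 7). Nothing states that libraries of a group came from separate pools, so p-values measure only the spread between these libraries, which may be technical.

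The libraries held 7285392 to 10017714 miRNA reads. The labels of the trained libraries are in doubt. The authors' deposited mean for trained control was rebuilt from libraries 6 and 7 with a root-mean-square error of 0.0187% over 319 miRNAs, and from libraries 3 to 5 with one of 15.6%. Adding library 2 or library 3 to libraries 6 and 7 gave 0.0186%, so the error alone does not single out that pair. The authors' mean for trained NIPP1* was rebuilt from libraries 3 to 5 (0.0231%) and not from libraries 6 and 7 (18.2%). The tables therefore assign the trained libraries to genotypes the opposite way from the labels. The labels are followed here, and values under the tables' grouping stand beside each test that uses the genotype of a trained library. Group names of trained libraries below mean the labelled group. Comparisons of trained with non-trained libraries over both genotypes do not depend on this assignment in which libraries count as trained. The level known when the stem was chosen may rest on the tables' trained control, libraries 6 and 7. Tests below that use libraries 6 and 7 may then reuse values behind the choice of miR-129-2-3p.

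miR-129-5p was the dominant product in every library. Levels are given in RPM, miRNA reads scaled to a library of 1000000. mmu-miR-129-5p measured 832 RPM without training in the control and 1070 RPM in the NIPP1* library. In the trained controls it measured 888, 1273 and 1210 RPM, and in the trained NIPP1* libraries 967 and 863 RPM. The trained controls averaged 1124 ± 207 RPM (SD, n = 3) and the trained NIPP1* libraries 915 ± 73.5 RPM (SD, n = 2). The groups overlapped, since the first trained control lay between both trained NIPP1* libraries. By mean level it ranked 68th of 756 sequences.

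miR-129-2-3p was the main 3p product and was lowest in both non-trained libraries. mmu-miR-129-2-3p measured 99.1 RPM without training in the control and 117 RPM in the NIPP1* library. The trained controls measured 156, 174 and 143 RPM, with a mean of 158 ± 15.2 RPM (SD, n = 3). The trained NIPP1* libraries measured 148 and 147 RPM, with a mean of 147 ± 1.20 RPM (SD, n = 2), and lay inside the range of the trained controls.

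miR-129-1-3p, assigned to the chromosome 6 hairpin, was the rarest product and had the same low pair of libraries. Without training it measured 11.5 RPM (102 reads) in the control and 12.4 RPM (100 reads) in NIPP1* mice. The trained controls measured 14.5, 15.2 and 17.1 RPM, a mean of 15.6 ± 1.36 RPM (SD, n = 3), and the trained NIPP1* libraries 18.1 and 17.4 RPM, a mean of 17.8 ± 0.530 RPM (SD, n = 2). The trained NIPP1* values were just above the highest trained control.

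**Figure D1:**
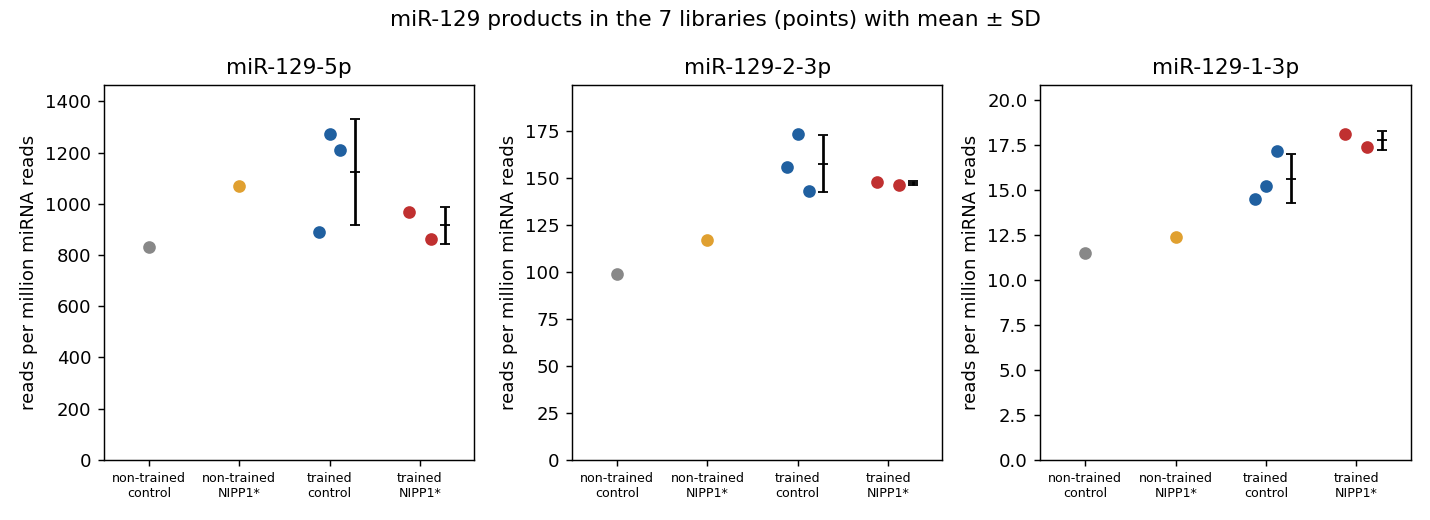
Level of each miR-129 product (y axis, RPM, from 0) in the 4 labelled groups (x axis). Points are libraries and black marks the mean ± SD of the trained groups; for both 3p products the non-trained points lie below every trained point, and for miR-129-5p they do not.

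Both 3p products were lower in the 2 non-trained libraries than in all 5 trained libraries, and miR-129-5p was not. For miR-129-2-3p the non-trained libraries reached 117 RPM and the trained ones began at 143 RPM. For miR-129-1-3p the corresponding values were 12.4 and 14.5 RPM. The trained range of miR-129-5p, 863 to 1273 RPM, held the non-trained NIPP1* value. Of the 476 miRNAs that averaged 10 reads or more, 16 (3.36%) had both non-trained libraries below all trained ones, and 39 (8.19%) had them above. With TMM scaling 32 (6.72%) lay below and 22 above, and both 3p products were still among the former. This contrast was known when the stem was chosen, so the separation is a description.

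Over both genotypes, the trained libraries exceeded the non-trained ones by 0.50 ± 0.14 (log2 RPM + 0.5, SE) for miR-129-2-3p and by 0.46 ± 0.16 for miR-129-1-3p, against 0.09 ± 0.17 for miR-129-5p. The last value ran from 0.04 to 0.17 when each trained library was left out in turn, and was 0.15 with TMM scaling. The median over 476 miRNAs was -0.05. In controls alone the log2 difference was 0.66 ± 0.19 for miR-129-2-3p, 0.43 ± 0.22 for miR-129-1-3p and 0.42 ± 0.23 for miR-129-5p, against a median of -0.09. Under the tables' grouping the control values were 0.57, 0.61 and 0.13, and 12 miRNAs had a limma unadjusted p under 0.05. As labelled, limma called 0 of 476 miRNAs in either contrast at an adjusted p under 0.05 (0%). At an unadjusted p under 0.05 there were 16 and 28. Leaving out each trained library in turn gave 5 (without the first trained NIPP1* library) to 65 (without the first trained control) over both genotypes, and 14 (without the second trained control) to 108 (without the first) in controls. DESeq2's Wald test called 1 miRNA in each and the robust edgeR test 0. The 1 was miR-129-2-3p, whose level in this contrast was known when the stem was chosen, so that call is no test of it.

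Summed markers of other cell types moved with some of these values. Blood vessel miRNAs (4 of 4 measured) summed to 14790 and 14820 RPM in the non-trained libraries and to 15490 to 18450 RPM in the trained ones. They shared with the 3p products only the split of non-trained from trained, and the order of the trained libraries differed. Singly, miR-143 and miR-145 had that split and the miR-126 arms did not. Oligodendrocyte miRNAs (4 of 4) summed to 5458 RPM in the non-trained control and to 3263 to 3704 RPM in the trained controls, and to 4397 RPM in the non-trained and 4670 to 5060 RPM in the trained NIPP1* libraries. Red blood cell miRNAs (3 of 4; miR-486 was not matched) summed to 127 RPM in the non-trained and 66.2 to 138 RPM in the trained controls, and to 90.1 RPM in the non-trained and 145 to 272 RPM in the trained NIPP1* libraries. Leukocyte and microglial miRNAs (5 of 5) spanned 1031 to 1312 RPM in the non-trained and 808 to 1072 RPM in the trained libraries, and choroid plexus miRNAs (6 of 6, 1 of them at 0 in a library) 2117 to 2148 and 1068 to 3497 RPM. The neuronal miRNAs miR-124, miR-128 and miR-9 summed to 207800 RPM in the non-trained and 181400 to 205400 RPM in the trained controls. In the NIPP1* libraries they summed to 196300 RPM without training and 190900 to 192100 RPM with it. The labelled tissue's neuronal markers were thus present. The part of other cell types in the result was not tested. In pooled tissue, fewer cells of a type and less RNA per cell cannot be told apart.

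In NIPP1* mice, neither 3p product passed the test for training. miR-129-2-3p was higher by 0.33 ± 0.20 (log2, SE; 95% interval -0.14 to 0.80) and miR-129-1-3p by 0.50 ± 0.23 (-0.05 to 1.05). miR-129-5p differed by -0.23 ± 0.24 (-0.80 to 0.35). All had a limma adjusted p of 0.973. Of the 476 miRNAs 0 were called (0%), with 21 at an unadjusted p under 0.05. Leaving out each trained library in turn gave 10, without the first trained NIPP1* library, to 37, without the first trained control, and -0.31 to -0.15 for miR-129-5p. Under the tables' grouping the differences were 0.43, 0.32 and 0.05, so that of miR-129-5p turned positive. This comparison shares its trained NIPP1* libraries with the one between trained genotypes. Both may reuse values behind the choice of the stem, so for miR-129-2-3p they may not be independent tests.

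Between trained NIPP1* and trained control libraries no product passed the test. miR-129-5p differed by -0.28 ± 0.18 (log2, SE; 95% interval -0.71 to 0.15, limma adjusted p = 0.662). miR-129-2-3p differed by -0.09 ± 0.15 (-0.44 to 0.26, adjusted p = 0.875) and miR-129-1-3p by 0.18 ± 0.17 (-0.23 to 0.59, adjusted p = 0.783). Limma called 0 of 476 miRNAs (0%), with 34 at an unadjusted p under 0.05. Leaving out each trained library in turn gave 10 (without the second trained NIPP1* library) to 113 (without the first trained control), with 0 called each time. Without the first trained control miR-129-5p differed by -0.44 (limma adjusted p = 0.098); leaving out each trained library in turn gave -0.44 to -0.18 for it and -0.16 to -0.02 for miR-129-2-3p, which was -0.17 with TMM scaling. With TMM scaling miR-129-1-3p differed by 0.11. DESeq2's Wald test and the robust edgeR test each called 1, miR-344d-3*, and edgeR without robust estimation 0. The tables' grouping turns all these signs. Oligodendrocyte miRNAs (4 of 4) summed to 3263 to 3704 RPM in the trained controls and to 4670 to 5060 RPM in the trained NIPP1* libraries, and red blood cell miRNAs to 66.2 to 138 and 145 to 272 RPM. Their part in these values was not tested.

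**Figure D2:**
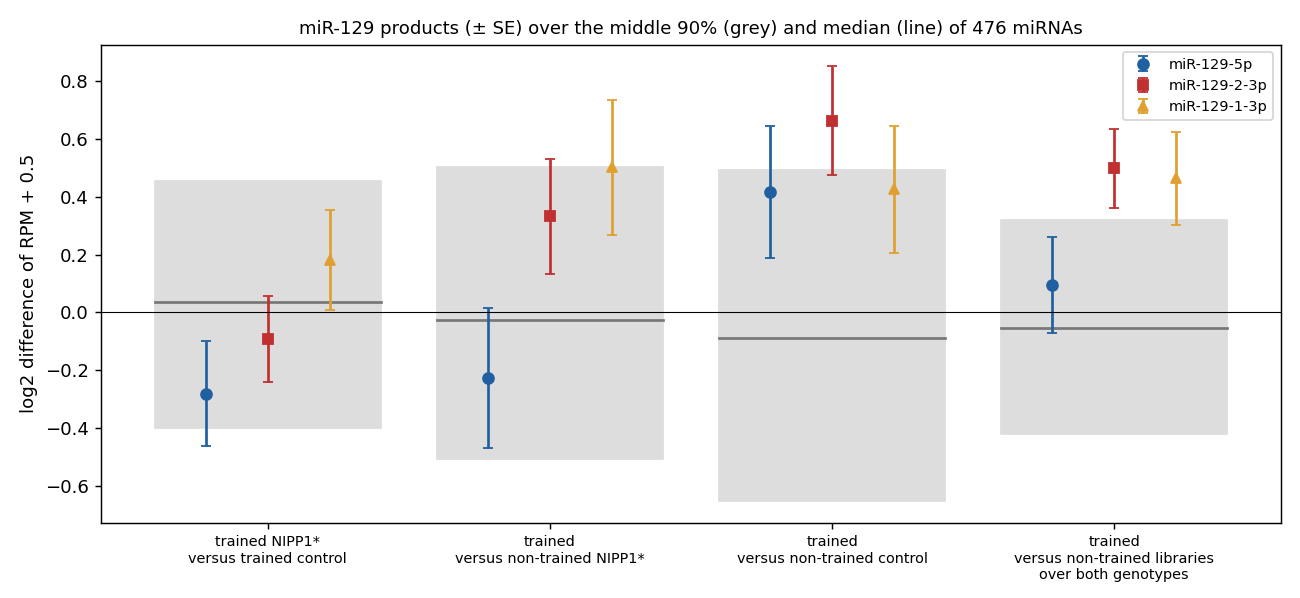
Log2 difference of RPM + 0.5 (y axis, points ± SE) of the 3 products in 4 comparisons (x axis), over the middle 90% (grey) and median (line) of 476 miRNAs. Both 3p products lie above 0 in all comparisons with training; miR-129-2-3p is highest at 0.66 in controls, and miR-129-5p is below 0 in both comparisons of trained NIPP1* libraries.

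Without training, 1 library of each genotype was sequenced, so there is no replicate check. The log2 ratio of NIPP1* to control was 0.36 for miR-129-5p (95% exact binomial interval 0.32 to 0.41), 0.24 for miR-129-2-3p (0.10 to 0.37) and 0.11 for miR-129-1-3p (-0.30 to 0.52). The intervals cover counting error only. Of 322 miRNAs averaging 100 reads or more here, 3 (0.932%) differed by a log2 ratio of 1 or more in either direction, and neither miR-129-5p nor miR-129-2-3p was one of them. From 10 reads upward it was 14 of 482 (2.9%), again with no miR-129 product. miR-129-5p ranked 22nd from the highest ratio. Trained libraries of one label differed in miR-129-5p by up to 0.52 on this scale, which is more than the difference between the non-trained libraries.

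The 3p products were a minority of the stem's reads. Without training they made up 11.7% of miR-129 reads in the control and 10.8% in NIPP1* mice. In the trained controls the share was 16.1%, 12.9% and 11.7%, and in the trained NIPP1* libraries 14.7% and 16.0%. The third trained control was at the level of the non-trained control, so trained and non-trained libraries were not separated on this measure. miR-129-5p reads outnumbered those of miR-129-2-3p 5.69 to 9.15 times.

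Most 3p reads were assigned to the chromosome 2 hairpin. Over all libraries, 888 of 9111 3p reads were miR-129-1-3p, a share of 9.75% (95% exact Clopper-Pearson interval 9.14% to 10.4%). The lowest share was 8.05% (6.76% to 9.51%) in the second trained control and the highest 10.9% (9.19% to 12.8%) in the first trained NIPP1* library. The intervals cover counting error only, and the difference was not tested over libraries. The ratio of miR-129-2-3p to miR-129-1-3p stayed between 8.18 and 11.4.

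**Figure D3:**
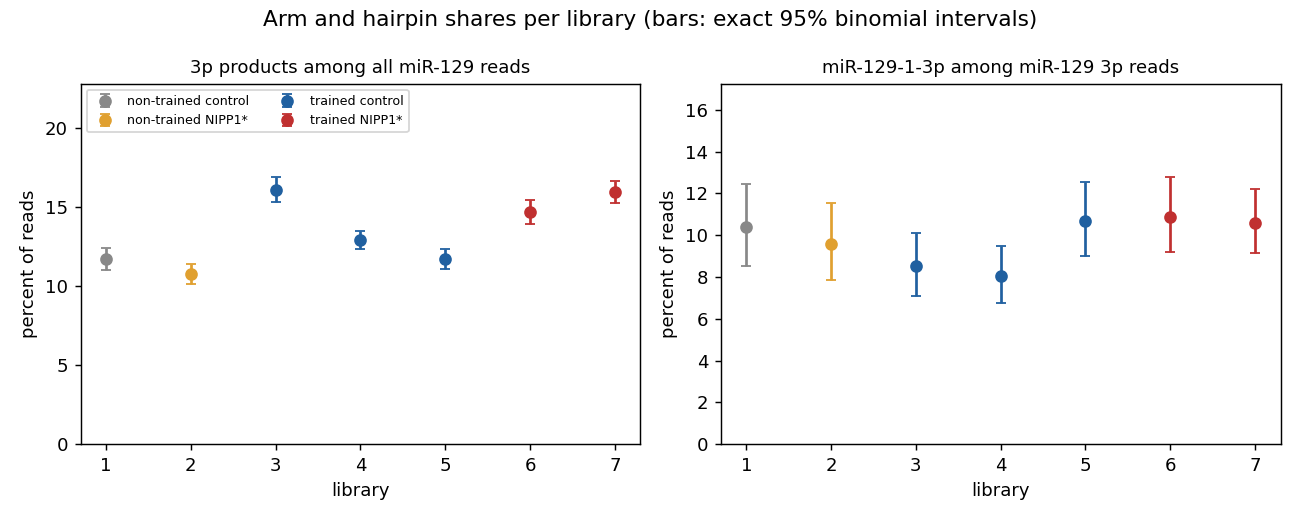
Left, percent of miR-129 reads from 3p products, and right, percent of 3p reads that are miR-129-1-3p (y axes from 0), by library number (x axis) and labelled group. Bars are exact 95% binomial intervals; the 3p share ran from 10.8% to 16.1%, and the miR-129-1-3p share from 8.05% to 10.9%.

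The ratio of 3p to 5p was compared over 169 hairpins with both arms measured. For Mir129-2 it averaged -2.85 (log2), and 63 hairpins had a lower mean. For Mir129-1 it averaged -6.02, with 33 lower. Both values divide by the 5p reads of both hairpins together. Each is therefore a lower bound on its hairpin's own ratio, if the 3p reads are assigned rightly. The median over hairpins was -1.10, and 97 of 169 had less 3p than 5p. The ratio was lower in both non-trained libraries than in all trained ones for 8 hairpins (4.73%) and higher for 9 (5.33%), and neither miR-129 hairpin was among them.

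**Figure D4:**
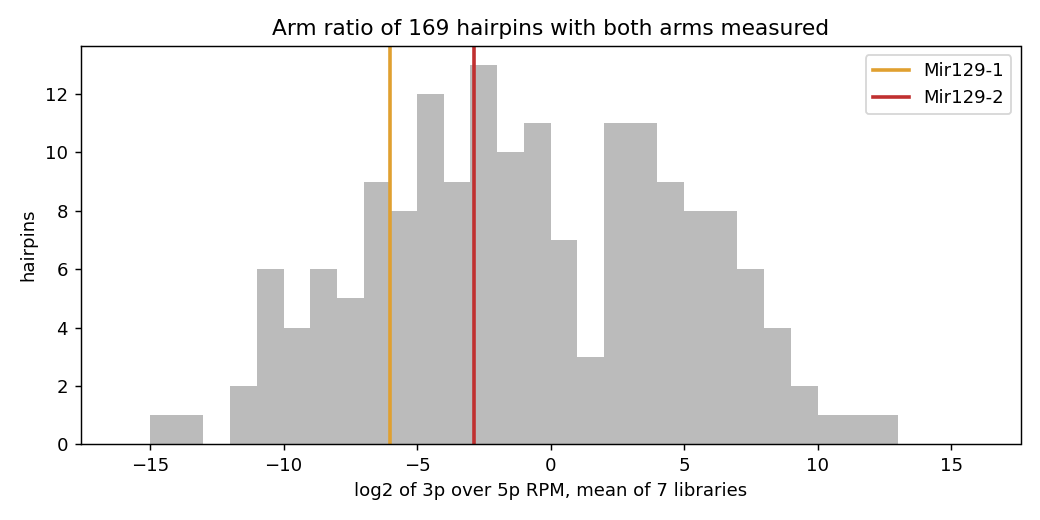
Number of hairpins (y axis) by log2 of 3p over 5p RPM, averaged over 7 libraries (x axis), for 169 hairpins. Lines mark Mir129-1 at -6.02 and Mir129-2 at -2.85, both on the side where 5p exceeds 3p.

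Between trained NIPP1* and trained control libraries the ratio differed by 0.46 ± 0.18 (log2, SE; 95% interval 0.03 to 0.90) for Mir129-1 and by 0.19 ± 0.20 (-0.30 to 0.67) for Mir129-2. Neither passed the test over 169 hairpins (limma adjusted p = 0.556 and 0.807), and 0 hairpins did (0%; 14 at an unadjusted p under 0.05, and 6 to 37 when each trained library was left out in turn). Leaving out each trained library in turn moved the difference of Mir129-2 between 0.06, without the third trained control, and 0.34, without the first (limma adjusted p = 0.95 and 0.22). Under the tables' grouping the signs turned, to -0.46 and -0.19. Between trained and non-trained NIPP1* libraries the differences were 0.73 ± 0.24 (0.15 to 1.31) and 0.56 ± 0.27 (-0.09 to 1.21), with limma adjusted p = 0.582 and 0.645. Under the tables' grouping they were 0.27 and 0.37. Here too 0 of 169 hairpins were called (0%), with 13 at an unadjusted p under 0.05 (2 to 29 with a trained library left out). With the tables' grouping 7 hairpins had a limma unadjusted p under 0.05 in that comparison, and 0 were called. Both ratios share the 5p reads and are not independent. The ratio of Mir129-2 may also reuse values behind the choice of the stem.

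Across the 7 libraries, correlations of log2 levels are given as descriptions, since they include the libraries of the contrast known when the stem was chosen. The points share library and depth. Pearson's r between miR-129-5p and miR-129-2-3p was 0.452 and Spearman's rho 0.429. Without libraries 4 and 5, farthest from the median of miR-129-5p, r was 0.0459. Leaving out 1 library at a time gave 0.131, without the non-trained control, to 0.594, without the first trained control, and 0.184 without the second trained control. For miR-129-5p and miR-129-1-3p, r was 0.231 and rho 0.214, and without the same libraries r was -0.00819. For the 3p pair r was 0.735 and rho 0.464. That value rests on libraries 1 and 2, the non-trained ones, and without them r was -0.709.

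**Figure D5:**
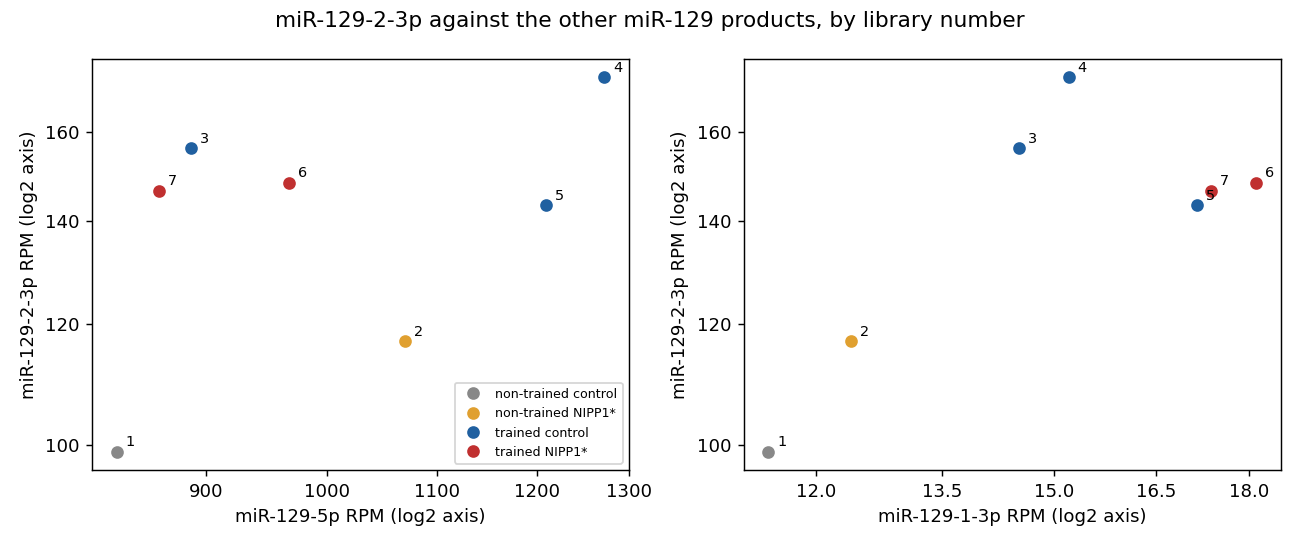
Level of miR-129-2-3p (y axes, RPM on a log2 axis) against miR-129-5p (left) and miR-129-1-3p (right; x axes, RPM on a log2 axis), with library numbers. The non-trained libraries 1 and 2 are at the lower left of the right panel, and the 5 trained libraries alone do not rise together.

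The spread among trained libraries of one label is given as a description. The within-group SD of log2 levels was 0.239 for miR-129-5p, 0.113 for miR-129-2-3p and 0.101 for miR-129-1-3p, against a median of 0.202 over 476 miRNAs. The order of the first 2 rests on the first trained control. It differed from the other two of its label by 0.52 and 0.45 (log2) in miR-129-5p, while those differed from each other by 0.07 in miR-129-5p and by 0.28 in miR-129-2-3p. The difference in spread was not tested.

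The miRNAs most like miR-129-2-3p and miR-129-5p are described by Pearson's r over 7 libraries, among 318 others averaging 100 reads or more. Nearest to miR-129-2-3p were miR-191 (r = 0.924), miR-365 (0.895), miR-145 (0.864), miR-212-3p (0.860) and miR-139-5p (0.805). miR-129-1-3p was eighth, at 0.735. Of these 5, all but miR-139-5p also had both non-trained libraries lowest. The 5 were picked for likeness to miR-129-2-3p, so this is no separate support. Nearest to miR-129-5p were miR-92b (0.983), let-7d* (0.970), miR-328 (0.965), miR-667 (0.943) and miR-673-5p (0.937). These 2 lists shared no miRNA, and miR-129-2-3p was 87th from miR-129-5p. The points share library and depth, so these values are descriptions.

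Other neuron-enriched miRNAs were described as a list of 20, all of them tested. limma called 0 higher and 0 lower in each of the 4 comparisons, and 0 under the tables' grouping. In trained against non-trained controls their median log2 difference was -0.18, with 6 of 20 above 0, beside a median of -0.09 and 40.5% above 0 over all 476 miRNAs. The highest were miR-328 (0.53) and miR-139-5p (0.39) and the lowest miR-218 (-0.46) and miR-495 (-0.40). Under the tables' grouping the list's median was -0.003, with 9 of 20 above 0, beside -0.04 and 44.75% over all. There miR-139-5p (0.43) was highest.

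In NIPP1* mice the list's median with training was 0.04, with 12 of 20 above 0, beside -0.03 and 43.9% over all. miR-153 (0.61) and miR-383 (0.35) were highest and miR-328 (-0.29) and miR-128 (-0.18) lowest. Under the tables' grouping the median was -0.05, with 7 of 20 above 0, beside -0.09 and 35.7% over all. There miR-383 (0.36) was highest. Between trained genotypes the median was 0.08, with 14 of 20 above 0, beside 0.04 and 56.3% over all. miR-153 (0.46) and miR-124 (0.32) were highest and miR-328 (-0.47) and miR-212-5p (-0.20) lowest, and the tables' grouping turns these signs and the order, with a median of -0.08. Over both genotypes, where the grouping changes nothing, the median was -0.03, with 10 of 20 above 0, beside -0.05 and 39.5% over all, and miR-139-5p (0.32) and miR-153 (0.20) were highest and miR-218 (-0.20) and miR-137 (-0.17) lowest.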

How the data were processed

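Small RNA libraries were processed by the authors with CASAVA 1.7.0, Bowtie and bedtools, per the labels, against mm9, with inserts of 19 to 26 nt. The deposited values are the percent of miRNA reads at each mature locus. They were multiplied to RPM, and loci of the same sequence were averaged. Read numbers were rebuilt from the spacing of low values, of which 99.1% to 99.7% were whole within 0.1 read. The authors' deposited tables hold normalised counts as signal per group; their pooled trained means served only to check the labels, and 2 columns of values matched no sample and were not used. Their fold changes and p-values were not used. Names came from the tables (690 of 756 sequences; the others reached at most 1.92 RPM). Sequences came from mm9; both hairpins and 2 of the 3 mature forms were also in RefSeq's table (GRCm38).

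Log2(RPM + 0.5) was fitted with limma 3.58.1 (trend, 4 groups, all 7 libraries, 476 miRNAs averaging 10 reads or more, Benjamini-Hochberg), in R 4.3.3. edgeR 4.0.16 and DESeq2 1.42.0 were run on the recovered reads as alternatives, with other scalings, pseudocounts, filters and left-out libraries. The limma script was tested on simulated data. The 5 miRNAs most like miR-129-2-3p and the 5 most like miR-129-5p were named, and list members by the largest differences. The members and lists were chosen with earlier results of these data known.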

Additional observations from a re-analysis of the deposited data

Results flagged for a closer look

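The training difference of miR-129-5p pointed opposite ways by labelled genotype. All 3 trained controls (888 to 1273 RPM) exceeded the non-trained control at 832 RPM, and both trained NIPP1* libraries (863 and 967 RPM) were below the non-trained NIPP1* library at 1070 RPM. The log2 differences were 0.42 and -0.23, which are 0.64 apart, and the difference between them was not tested. Each rests on 1 non-trained library, and under the tables' grouping they were 0.13 and 0.05. As labelled, 24.2% of 476 miRNAs had a difference larger in size in controls, and 42.4% had one in NIPP1* mice.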

How the results depend on the processing

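Counts of called miRNAs moved from 0 with the tool. DESeq2's Wald test called 1 between trained genotypes, 2 in trained against non-trained NIPP1*, 1 in controls and 1 over both genotypes. The edgeR test with robust estimation called 1 between trained genotypes. Without robust estimation, an alternative added after its count had been seen to differ, it called 0. Leaving out trained libraries in turn gave 0 to 1 called arm ratios between trained genotypes; the 1, Mir204, appeared without the first trained control. In the non-trained libraries, a minimum of 10 reads gave 14 miRNAs past the size rule in place of 3. The tables' grouping reversed the difference between trained genotypes for miR-129-5p (0.28), miR-129-2-3p (0.093), miR-129-1-3p (-0.18) and the ratios of Mir129-1 (-0.46) and Mir129-2 (-0.19), and that of miR-129-5p in NIPP1* mice with training (0.053). The cause of the tool differences was not tested. Under the other alternatives every difference of a product kept its sign. The fit over both genotypes uses all groups, so restricting it to the groups compared changes nothing. With 1 library in each non-trained group, every comparison with training assumes that library varies like the trained ones. No paired analysis was possible because the labels number no replicates; the numbers used here follow accession order and only name the libraries.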
